A study of Mus musculus and Homo sapiens with 11 samples.

Results

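The Hoxa cluster is a row of homeobox genes on mouse chromosome 6, and 9 of its genes are described here: Hoxa2, Hoxa3, Hoxa4, Hoxa5, Hoxa6, Hoxa7, Hoxa9, Hoxa10 and Hoxa11. They are 9 of the 24062 genes listed in a table of RNA-seq values of MMTV-ErbB2 cells, a mouse mammary tumour line named for the mouse mammary tumour virus promoter and the receptor gene ErbB2. The table holds 3 libraries of the parental line and 3 of a brain metastatic derivative of it, BrM (2a in the labels), from polyadenylated RNA of cells in culture. Both groups are the same line and no further treatment is named, and the labels do not say whether the derivative is 1 clone, whether its libraries are separate cultures, or which of the 2 kits and 2 media they name belongs to which library. P-values therefore reflect library-to-library spread that may be technical, and any effect of kit or medium cannot be told apart from that of the derivative. The 9 genes were picked by symbol with the difference between the groups already known, so that difference is described below and not tested. Hoxa13, at the 5′ end of the cluster, is not among the 9 and is given for comparison, and the human cell line HCC1954, also in the series, is not analysed here.

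Hox genes encode transcription factors that bind DNA through a homeodomain and give cells their position along the head-to-tail axis of the embryo. Genes at the 3′ end of a cluster (low numbers) are typically active earlier and nearer the head, and genes at the 5′ end (high numbers) later and nearer the tail, an arrangement called collinearity. In adult tissues the active part of a cluster is kept open by MLL-type histone methyltransferases and the silent part is kept closed by Polycomb proteins, and retinoic acid is a known inducer of the 3′ genes. Hoxa9 and Hoxa10 are known for their activity in blood stem cells and leukaemia, and HOXA5 is a gene often found silenced in human breast cancer.

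The 9 genes span 83.4 kb of chromosome 6 (GRCm38, 52162417 to 52245810, GENCODE M21 gene extents), and all are transcribed from the minus strand. The stretches of 250 bases before a start site are shown for 4 of them because they cover the range of the data: Hoxa5, the highest per kb in the derivative, Hoxa9 and Hoxa10, which had 0 to 3 reads in the parental line, and Hoxa11, which had 1 read in all. They are RefSeq sequences on GRCm38.p6, read 5′ to 3′ on the minus strand, with each CG dinucleotide in capitals. Hoxa10 has 2 listed starts, and the table does not say which start the reads came from.
Hoxa5, chr6:52204588-52204837: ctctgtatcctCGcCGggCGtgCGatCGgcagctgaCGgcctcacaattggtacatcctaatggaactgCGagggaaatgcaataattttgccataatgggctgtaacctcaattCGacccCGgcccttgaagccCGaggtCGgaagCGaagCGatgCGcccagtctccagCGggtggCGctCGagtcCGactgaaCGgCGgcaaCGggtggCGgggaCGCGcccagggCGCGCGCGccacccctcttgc
Hoxa9, chr6:52227371-52227620: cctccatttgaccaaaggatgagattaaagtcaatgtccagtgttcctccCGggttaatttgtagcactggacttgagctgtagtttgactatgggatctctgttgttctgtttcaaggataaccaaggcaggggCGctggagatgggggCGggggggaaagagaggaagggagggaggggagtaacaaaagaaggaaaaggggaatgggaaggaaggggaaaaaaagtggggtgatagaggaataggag
Hoxa10, outer start, chr6:52240855-52241104: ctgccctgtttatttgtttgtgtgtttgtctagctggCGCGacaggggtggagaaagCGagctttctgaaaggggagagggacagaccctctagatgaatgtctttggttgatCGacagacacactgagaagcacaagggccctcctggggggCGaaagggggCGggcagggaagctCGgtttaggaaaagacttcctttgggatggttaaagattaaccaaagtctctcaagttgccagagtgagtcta
Hoxa10, inner start, chr6:52234940-52235189: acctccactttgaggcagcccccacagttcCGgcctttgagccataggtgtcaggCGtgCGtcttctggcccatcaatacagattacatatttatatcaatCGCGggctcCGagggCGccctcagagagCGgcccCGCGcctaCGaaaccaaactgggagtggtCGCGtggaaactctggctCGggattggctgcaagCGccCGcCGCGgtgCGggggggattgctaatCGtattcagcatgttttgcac
Hoxa11, chr6:52245811-52246060: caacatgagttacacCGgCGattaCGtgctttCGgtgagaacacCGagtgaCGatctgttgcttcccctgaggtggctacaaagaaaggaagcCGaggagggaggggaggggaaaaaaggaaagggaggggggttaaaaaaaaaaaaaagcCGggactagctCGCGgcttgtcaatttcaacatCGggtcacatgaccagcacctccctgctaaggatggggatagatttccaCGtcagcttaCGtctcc
The table of start sites matched 8 of the 9 members, with 9 windows, and Hoxa4 had no entry. The Hoxa5 window held 28 CG dinucleotides, more than 92.4% of 32851 mouse windows of the same length, whose median was 6. The Hoxa9 window held 3, the outer Hoxa10 window 7, the inner one 20 and the Hoxa11 window 13. Genes with almost no parental reads thus had windows both below and above the median, and the silent Hoxa11 lay above it as the active Hoxa5 did. The letters TGATTNAT, a form of the site that Hox and Pbx proteins bind together, were searched on both strands, as was TATAAA, with which they can share bases. They occurred in the Hoxa2 window and in none of the other 8, against 2.82% of all windows. TATAAA occurred in the inner Hoxa10 window alone of the 9, against 12.4% of all.

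Reads assigned to genes ranged from 29877087 to 46683735 per library. Epithelial markers summed to 96079 to 109686 scaled counts in the parental libraries and 143813 to 158245 in BrM (3 of 7 higher, 3 lower, 1 not passing), and the leukocyte marker Ptprc stood at 0 to 4.88 throughout. A list of 10 fibroblast markers went the other way: its sum was 16105, 14414 and 4647 in the parental libraries, in the order of replicates 1, 2 and 3, and 1112, 224 and 229 in the BrM ones, with 4 of the 10 passing as lower, 2 not passing, 4 under the filter, Lum without a read in any library and Dcn and Thy1 without one in BrM. Leukocyte markers summed to 221 to 598 in the parental line and to 3009, 475 and 452 in BrM, where Cd68 and Csf1r gave nearly all of it. Of the 6 leukocyte markers 2 were tested, with log2 differences of 0.74 and 5.62, and 1 of the 2 passed as higher. The list of 6 neural and glial markers summed to 974, 1278 and 1292 in the parental libraries and to 2248, 2158 and 2171 in BrM, so it was higher in the same libraries as the Hoxa genes. Its 2 tested genes both rose: Mbp, a myelin protein gene that made up most of the sum in every library (limma adjusted p = 0.00895), and Gfap, an astrocyte filament gene at 20.4, 20.6 and 29.3 against 138, 99.5 and 79.2 (adjusted p = 0.00637). Of the other 4, Olig2 had no read in any library, Aqp4 none in BrM, and Rbfox3 and Snap25 stood at 0 to 5.67. The 4 endothelial markers summed to 9.44 to 18.9 in the parental line and 3.73 to 25.6 in BrM. The part of these markers in the Hoxa differences was not tested. In bulk RNA fewer cells of a type and less RNA per cell cannot be told apart. Over all genes BrM replicates 2 and 3 were the closest pair, with 220 genes at least 2-fold apart, against 3614 and 3654 between either of them and BrM replicate 1 and 976 to 1683 between parental libraries.

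As a group the Hoxa genes were nearly silent in the parental line and active in the derivative. Values are scaled read counts, the authors' read counts adjusted for library depth. The parental libraries, replicates 1 to 3 in order here and below, summed to 84.5, 98.0 and 18.9 over the 9 genes, from 222 reads in all. The BrM libraries, in the same order, summed to 1388, 1460 and 1409, from 4176 reads. All 3 BrM libraries were far above all 3 parental ones, and they lay close together while the lowest parental one, replicate 3, stood well under the others. The group means were 67.1 ± 42.3 and 1419 ± 36.8 (SD, n = 3), a ratio of 21.1. Even in the derivative these are modest levels, 38.1 to 39.6 CPM (reads scaled to library total) against 0.498 to 2.55 CPM in the parental line.

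**Figure D1:**
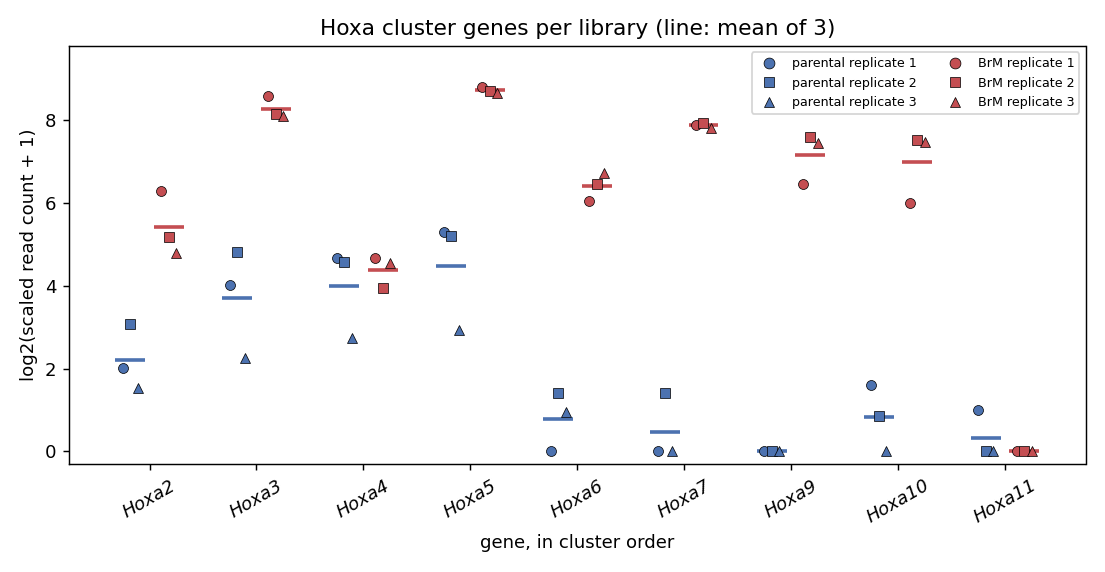
Scaled read counts of the 9 members in each library, as log2(scaled count + 1), with genes in cluster order on the horizontal axis; blue marks are parental and red marks BrM libraries, and short lines are group means. Hoxa4 and Hoxa11 overlap between groups, the other members do not, and parental replicate 3 (triangle) is the lowest parental library for Hoxa2 to Hoxa5.

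For 7 of the 9 members every BrM library lay above every parental one, as it did for 22.3% of all 13821 genes tested (48.0% when either direction is counted) and 18.5% of the 19183 genes with a read. Of the 9, 8 had the mean scaled count of at least 10 needed for testing, and 5 of those 8 (Hoxa2, Hoxa6, Hoxa7, Hoxa9 and Hoxa10) reached it only through the BrM libraries. Limma called 7 of the 8 higher in BrM at an adjusted p under 0.05, where it called 12.2% of all tested genes higher; since the members were chosen on this difference, nothing is read from the count. The median log2 difference of the 8 was 5.11, or 4.80 with the genes of 0 to 3 parental reads set at their lower bounds, and that of all tested genes was -0.05.

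The 3′ genes had some parental expression. Hoxa2, which patterns the hindbrain and the second pharyngeal arch, stood at 3.05, 7.41 and 1.89 in the parental libraries and at 76.9, 35.4 and 27.0 in BrM. Every BrM library was higher, BrM replicate 1 by the widest margin. On the log2(value + 1) scale the means differed 9.31-fold (4.12 ± 2.91 against 46.4 ± 26.7; log2 difference 3.22, SE 0.60).

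Hoxa3, needed for the thymus and parathyroid glands, stood at 15.3, 27.2 and 3.78 in the parental libraries and at 386, 284 and 276 in BrM. The groups were far apart. The fold was 24.1 (15.4 ± 11.7 against 315 ± 61.3), and 14.6 without parental replicate 3, the lowest library.

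Hoxa4 was the exception within the active stretch. Its gene lies within the extent of the Hoxa3 model, as do Hoxa5 and Hoxa6, so how shared reads were assigned could affect these values. It stood at 24.4, 23.1 and 5.67 in the parental libraries and at 24.4, 14.3 and 22.4 in BrM, so the groups overlapped. Its log2 difference was 0.39 (SE 0.61), a fold of 1.31, and without parental replicate 3 the sign turned, to -0.24. Its share of the members' summed counts was 28.9%, 23.5% and 30.0% in the parental libraries and 1.76%, 0.983% and 1.59% in BrM.

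Hoxa5, which patterns the lung and the neck and upper thoracic skeleton, stood highest of the members per kb of exon in all 3 BrM libraries. It stood at 38.7, 36.2 and 6.61 in the parental libraries and at 448, 418 and 402 in BrM. The 3 BrM libraries were within a narrow band well above the parental ones. The fold was 18.9 (27.2 ± 17.9 against 423 ± 23.2), and 11.01 without parental replicate 3.

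The middle genes, Hoxa6 and Hoxa7, which act in the trunk, went from almost no reads to clear expression. Hoxa6 stood at 0, 1.65 and 0.944 in the parental libraries, 3 reads in all, and at 65.9, 87.0 and 105 in BrM. The ratio of reads was 95.3 (exact 95% interval for counting error alone 32.2 to 465). It was 66.5 without parental replicate 1 and 179 without parental replicate 2, which held 2 of the 3 reads. Hoxa7 had 2 parental reads, both in replicate 2, at a value of 1.65, and stood at 236, 246 and 226 in BrM. Its 3 BrM libraries lay close together. The ratio was 384 (106 to 3176). Without parental replicate 2, where the parental line has no read, Hoxa7 was at least 161-fold higher, taking 3 parental reads in all as the floor.

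Mira, a noncoding RNA gene just beyond the 3′ end of Hoxa7 that has been linked to the activation of Hoxa6 and Hoxa7 in embryonic stem cells, was high in the same libraries. It stood at 2.04, 0.824 and 0 in the parental libraries and at 270, 258 and 265 in BrM, and passed as higher (limma adjusted p = 0.000249). Its ratio of reads was 287 (97.7 to 1393), 193 without parental replicate 3 and 600 without parental replicate 1. RefSeq places Mira at 52214491 to 52215288 and Hoxa7 at 52215623 to 52218573. GENCODE M21 has 1 Hoxa7 gene over both, so reads of the 2 could be split differently by another annotation.

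Hoxa9, known from blood stem cells and from development of the mammary gland, had no read in any parental library and stood at 87.9, 192 and 174 in BrM. All BrM libraries held at least 72 reads. With a floor of 3 reads over the parental group it was at least 170-fold higher, and at least 107-fold without parental replicate 2. Hoxa10, a regulator of uterine development, stood at 2.04, 0.824 and 0 in the parental libraries, 3 reads in all, and at 63.5, 183 and 176 in BrM. The ratio of reads was 160 (54.2 to 777), 108 without parental replicate 3 and 334 without parental replicate 1. For both genes BrM replicate 1 was the lowest BrM library.

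Expression ended between Hoxa10 and Hoxa11. Hoxa11, which shapes the forearm and lower leg, had 1 read in parental replicate 1 and none in the other 5 libraries, so no fold is given. Hoxa13, the last gene of the cluster, had no read in any library. The noncoding genes at that end were as silent, with Hottip at 0 throughout and Hoxa11os at 1 read, in BrM replicate 3.

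Compared per kb of exon, the levels of the derivative peaked at Hoxa5. Mean scaled counts per kb in BrM were 225 ± 12.4 for Hoxa5, 122 ± 23.6 for Hoxa3, 98.5 ± 22.5 for Hoxa6, 94.7 ± 3.92 for Hoxa7, 46.9 ± 17.3 for Hoxa9, 44.8 ± 21.3 for Hoxa10, 26.2 ± 15.1 for Hoxa2 and 12.8 ± 3.34 for Hoxa4. Hoxa5 stood above every library of the next gene, and Hoxa7 above every library of Hoxa9, while the other neighbouring pairs in this order overlapped (Hoxa3 with Hoxa6, Hoxa6 with Hoxa7, Hoxa9 with Hoxa10, Hoxa10 with Hoxa2, and Hoxa2 with Hoxa4). Hoxa4 stood above Hoxa11, which had no BrM read. In the parental line the order per kb was Hoxa5 (14.5 ± 9.51), Hoxa4 (11.1 ± 6.56), Hoxa3 (5.95 ± 4.52) and Hoxa2 (2.32 ± 1.64), with overlapping neighbours throughout, and every gene from Hoxa6 on was under 1.

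The 3 BrM libraries had similar summed levels but not the same mixture of genes, a difference that played no part in choosing the members. Relative to BrM replicates 2 and 3, BrM replicate 1 had more of the 3′ genes and less of the 5′ genes, in near cluster order. Its ratio of reads to those of the other 2 was 2.47 for Hoxa2 (exact 95% interval for counting error alone 1.72 to 3.54), 1.38 for Hoxa3 (1.20 to 1.58), 1.33 for Hoxa4 (0.733 to 2.33), 1.09 for Hoxa5 (0.964 to 1.24), 0.685 for Hoxa6 (0.498 to 0.928), 0.999 for Hoxa7 (0.841 to 1.18), 0.480 for Hoxa9 (0.368 to 0.619) and 0.354 for Hoxa10 (0.260 to 0.474). Across these 8 genes the ratio and the position in the cluster had a Spearman correlation of -0.98 and a Pearson correlation, on log2 ratios, of -0.94. This describes 8 genes that share the same 3 libraries, and no p is given. Mira, beside Hoxa7, had a ratio of 1.03 (0.877 to 1.21). BrM replicate 1 differed from the other 2 in much else, with 26.3% of tested genes more than 2-fold apart in the same ratio, and the part of those differences in this one was not tested.

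**Figure D2:**
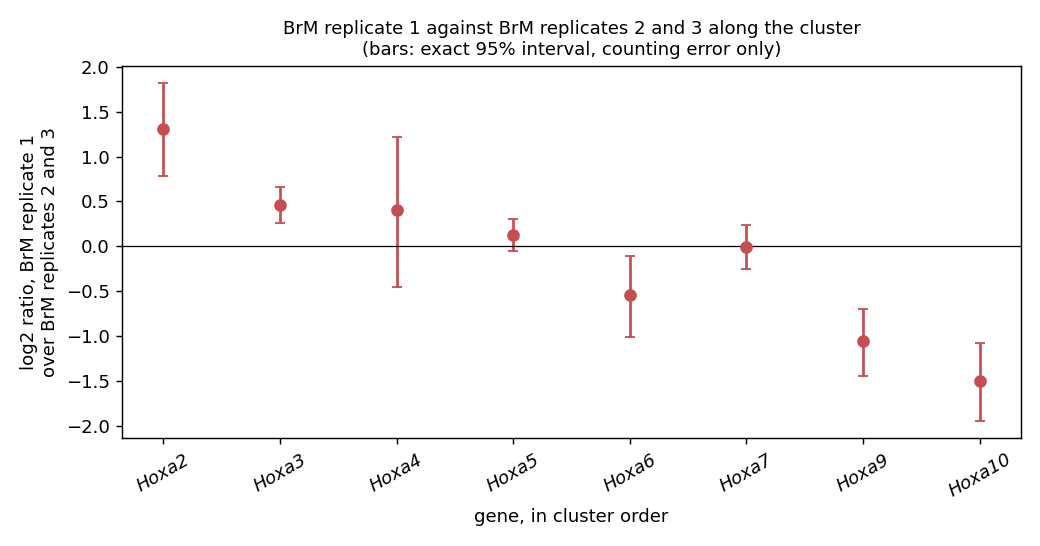
Log2 ratio of reads in BrM replicate 1 to BrM replicates 2 and 3 (vertical axis) for the 8 members with BrM reads, in cluster order (horizontal axis); bars are exact 95% intervals for counting error alone. The ratio goes from 2.47 at Hoxa2 to 0.354 at Hoxa10, with Hoxa7 off a steady decline.

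The parental libraries differed in level. In parental replicate 3 the ratio of reads to parental replicates 1 and 2 was 0.346 for Hoxa2 (0.0376 to 1.55), 0.173 for Hoxa3 (0.0453 to 0.472), 0.239 for Hoxa4 (0.0840 to 0.557) and 0.177 for Hoxa5 (0.0690 to 0.382), all below 1, though for Hoxa2 on 2 reads the interval includes 1. Of all genes, 7.37% of those tested were more than 2-fold lower in that library by the same ratio, and the median log2 ratio was -0.04. The fibroblast markers, at 4647 against 16105 and 14414, were lower in the same library, and their part in the Hoxa difference was not tested. Between the groups the fibroblast sum and the Hoxa genes went opposite ways.

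**Figure D3:**
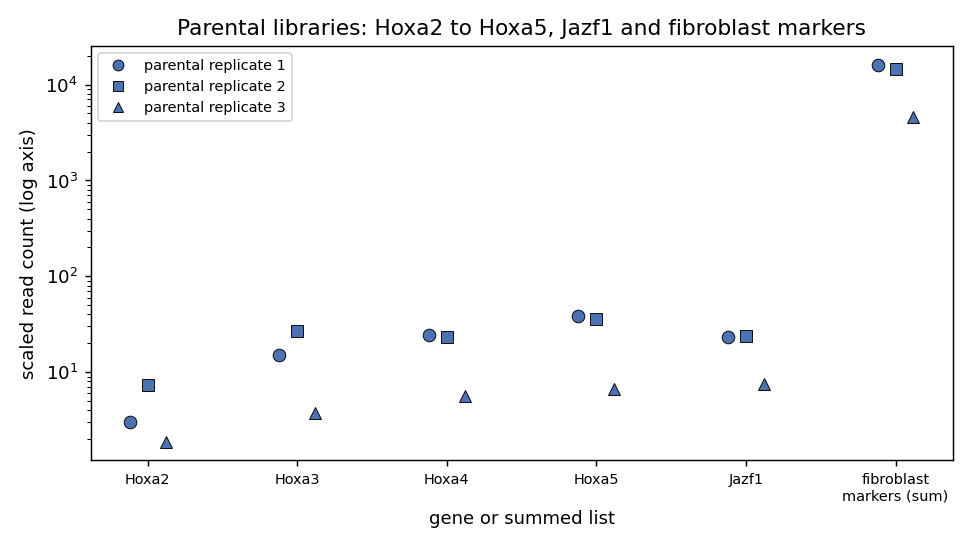
Scaled read counts (vertical axis, log scale) of Hoxa2 to Hoxa5, the neighbouring gene Jazf1 and the sum of 10 fibroblast markers in the 3 parental libraries, each library with its own mark. Parental replicate 3 (triangle) is the lowest for all 6, for example 6.61 against 38.7 and 36.2 for Hoxa5.

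Beyond the cluster, the nearest tested genes on either side, Skap2 and Hibadh, differed by less than 2-fold. Of 15 listed neighbours, 11 were tested, and 3 rose, with a median log2 difference of 0.14 over the 11. Limma called 12.2% of all tested genes higher. On the 3′ side Skap2, an adaptor protein gene 150 kb from Hoxa2, stood at 2358, 2137 and 1594 in the parental libraries and at 4233, 2609 and 2579 in BrM and did not pass. On the 5′ side Evx1, a homeobox gene 67.7 kb from Hoxa11, had a single read in all, in BrM replicate 2. Hibadh, an enzyme of valine breakdown 300.4 kb away, rose 1.51-fold (limma adjusted p = 0.0169), but missed the threshold when any of parental replicates 2 and 3 and BrM replicate 2 was left out (adjusted p 0.0557 to 0.0653). Jazf1, a transcriptional cofactor 523 kb away, stood at 23.4, 23.9 and 7.55 in the parental libraries and at 164, 206 and 182 in BrM and rose 10.6-fold (adjusted p = 0.00370). Tax1bp1, which lies between the latter 2, did not pass (log2 difference 0.07). Chn2, a GTPase-activating protein gene 1794 kb away, stood at 3.05, 9.06 and 9.44 in the parental libraries and at 1346, 786 and 818 in BrM and rose 127-fold (adjusted p = 0.000254). Skap2 and Tax1bp1 were picked after their values were seen. Without BrM replicate 1 the count of neighbours that passed was 5, while the count over all genes went from 3881 to 6465.

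**Figure D4:**
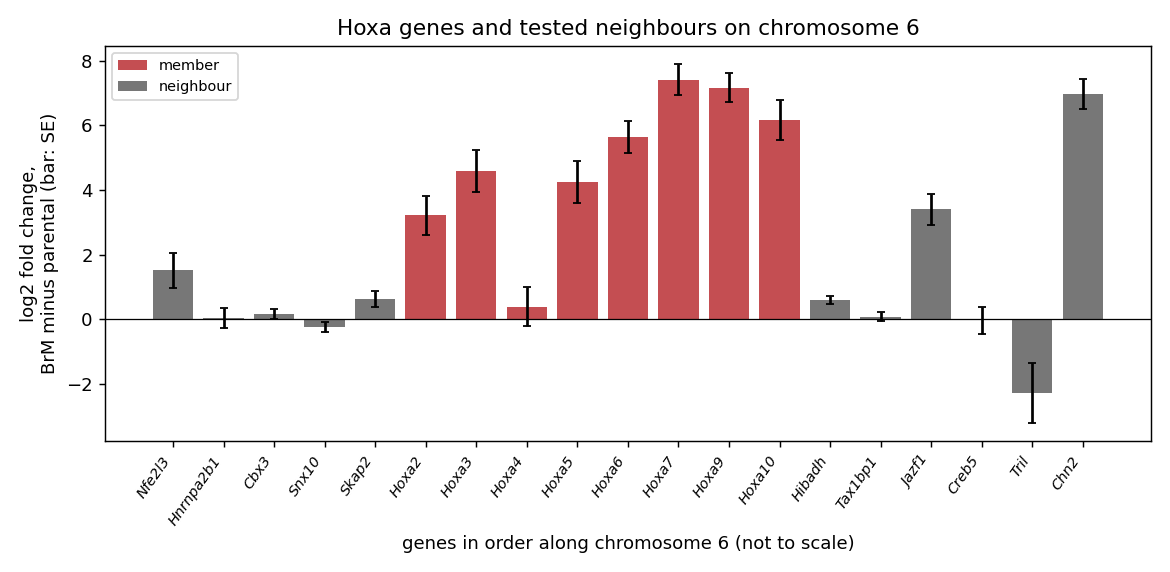
Log2 fold change, BrM minus parental (vertical axis, bars with SE), of the 8 tested members and the 11 tested neighbours in their order along chromosome 6 (horizontal axis, not to scale). The members other than Hoxa4 stand between 3.22 and 7.42. Of the neighbours only Jazf1 and Chn2 exceed 2, and Tril, which did not pass, stands at -2.29.

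Other noncoding genes of the cluster were low. The table holds 7 of the 13 listed under either symbol, and Mira alone was tested. The antisense gene Hoxaas3 (2700086A05Rik in the table), which runs across Hoxa5 and Hoxa6 on the other strand, stood at 1.02, 0.824 and 0 in the parental libraries and at 7.32, 15.3 and 18.6 in BrM, with a ratio of reads of 23.3 (6.05 to 198). Whether counting used strand is not stated, so its reads and those of the genes it overlaps cannot be told apart. Halr1 (Gm15055), on the 3′ side of Hoxa2, had 1 read, in parental replicate 1, and Evx1os (5730457N03Rik) had 1 read each in BrM replicates 2 and 3. Mir196b, between Hoxa9 and Hoxa10, was at 0 in all 6 libraries, whose preparation from polyadenylated RNA does not measure mature miRNAs.

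The other Hox clusters did not move alike. All 6 tested Hoxc genes of the 9 listed rose, against 12.2% of all tested genes, with a median log2 difference of 4.45. All of the 6 but Hoxc9 had parental means under 10 and reached the filter only through the BrM libraries. Being tested thus already required high BrM values, and nothing is read from the count. The list holds every Hox gene outside the 9, and the rise of Hoxc10 was known beforehand. Hoxc10 stood at 3.05, 0.824 and 0 in the parental libraries and at 539, 333 and 313 in BrM (limma adjusted p = 0.000398). Hoxc6 rose 23.5-fold (adjusted p = 0.000839), Hoxc4 13.7-fold (adjusted p = 0.000888) and Hoxc9 20.2-fold (adjusted p = 0.00146). In BrM replicate 1 the ratio to BrM replicates 2 and 3 was 0.862 for Hoxc4, 0.458 for Hoxc5, 1.70 for Hoxc6, 1.11 for Hoxc8, 1.04 for Hoxc9 and 1.67 for Hoxc10, with no steady order along the cluster.

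The 4 Hoxb genes with enough reads to be tested were already expressed in the parental line, and none passed. In 2 of the 4 every BrM library lay below every parental one. Of all tested genes 48.0% did not overlap when both directions are counted, and 22.3% lay above. The share that lay below is therefore well under 48.0%. Hoxb3 was at 671 ± 52.4 in the parental line and 477 ± 137 in BrM (adjusted p = 0.148), and Hoxb4 at 606 ± 8.0 and 462 ± 93.7 (adjusted p = 0.178). Of these 4 limma called 0, with 0 at an unadjusted p under 0.05, edgeR 0 and DESeq2 1, as lower. Without BrM replicate 1 Hoxb3 (adjusted p = 0.00735) and Hoxb4 (adjusted p = 0.0222) passed as lower. The count over all genes was then 6465, against 3881 with every library. Among the 6 Hoxb genes under the filter, Hoxb7 and Hoxb5, picked after their values were seen, were lower in every BrM library than in any parental one. Hoxb7 stood at 16.3, 20.6 and 3.78 in the parental libraries, 45 reads in all, and had 1 read in BrM, in replicate 2, a ratio of BrM to parental reads of 0.0246 (0.00061 to 0.144). Hoxb5 stood at 9.16, 7.41 and 5.67 against 2.44, 1.91 and 1.86, from 24 and 6 reads (ratio 0.277, 0.0926 to 0.696). Neither was tested. No Hoxd gene reached the filter, and 5 of 9 had no read in any library. Hoxd4 had no parental read and stood at 8.54, 11.5 and 3.73 in BrM, and Hoxd11 stood at 1.02, 0 and 0 against 2.44, 1.91 and 0.931.

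The proteins that bind DNA beside Hox factors, the Pbx and Meis families, moved in both directions. Of 9 tested partner genes 1 rose, 3 fell and 5 did not pass, with a median log2 difference of -0.92. Over all tested genes limma called 12.2% higher and 15.8% lower. Meis2 stood at 577, 703 and 476 in the parental libraries and at 90.3, 163 and 124 in BrM, and fell 4.70-fold (585 ± 114 against 126 ± 36.2, limma adjusted p = 0.00278) and Pbx3 2.57-fold (adjusted p = 0.0388). Pbx4 rose 4.48-fold from a low level (10.6 ± 2.30 against 54.8 ± 29.2, adjusted p = 0.0163). Pbx3 missed the threshold on leaving out any library but BrM replicate 1 (adjusted p 0.0560 to 0.129). Pbx4 missed it on leaving out parental replicate 2, parental replicate 3 or BrM replicate 2 (0.0504 to 0.0630). The count that passed was 2 in each of the latter cases and 6 without BrM replicate 1. Leaving out BrM replicate 1 also raised the count over all genes, from 3881 to 6465.

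Like most genes tested, most chromatin regulators of Hox genes did not pass. Among 15 Polycomb genes 2 rose and 13 did not pass, where limma called 12.2% of all tested genes higher and 15.8% lower. The 2 encode CBX subunits that read the repressive histone mark: Cbx2 rose 1.68-fold (698 ± 88.4 against 1176 ± 143, limma adjusted p = 0.0209) and Cbx8 1.59-fold (234 ± 17.5 against 374 ± 37.0, adjusted p = 0.0453). Neither passed when parental replicate 1, parental replicate 2, BrM replicate 2 or BrM replicate 3 was left out (adjusted p 0.0713 to 0.177), and the count was then 0. Without parental replicate 3 Cbx8 missed the threshold (0.116) and the count was 1, and without BrM replicate 1 it was 4. In the last case 6465 genes were called in all, against 3881 with every library.

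Of 16 tested MLL complex members and other activators, 1 rose, 2 fell (12.2% and 15.8% over all tested genes) and 13 did not pass. Mllt3, a reader of acetylated histones that is fused to MLL in some leukaemias, stood at 8.14, 7.41 and 11.3 in the parental libraries and at 1395, 2374 and 2441 in BrM and rose 204-fold (limma adjusted p = 8.83e-05). Its rise was known beforehand. Aff1 fell 1.87-fold (adjusted p = 0.00558) and Mllt10 1.56-fold (adjusted p = 0.0352), both of them further MLL fusion partners. Mllt10 missed the threshold on leaving out any library but BrM replicate 1 (adjusted p 0.0651 to 0.116). Without BrM replicate 1 the count that passed was 7, while that over all genes went from 3881 to 6465. The Cdx genes, caudal homeobox activators of Hox genes, were at 1 read or fewer in every library.

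Genes of retinoic acid handling and response fell or did not pass. Of 13 tested, 6 fell, against 15.8% of all tested genes, and 7 did not pass, with a median log2 difference of -1.19. By limma 0 rose, with 0 at an unadjusted p under 0.05, and edgeR and DESeq2 called 0 higher. Rarb, a retinoic acid receptor whose gene is itself induced by the ligand, stood at 1046, 955 and 620 in the parental libraries and at 227, 162 and 165 in BrM and fell 4.66-fold (adjusted p = 0.00228). Cyp26b1, which breaks retinoic acid down, fell 16.6-fold (319 ± 85.1 against 23.1 ± 21.3, adjusted p = 0.00535; 26.8-fold without BrM replicate 1), and Rxra, the partner of retinoic acid receptors on DNA, fell 1.70-fold (adjusted p = 0.00578). Among the 13 the largest log2 difference was 2.10, in a gene that did not pass. In 1 of them every BrM library lay above every parental one, and in 6 every one lay below. Over all tested genes 22.3% lay above in this way, and 48.0% did not overlap in either direction. The part of these genes in the Hoxa difference was not tested. Without BrM replicate 1 the count that passed was 9, while that over all genes went from 3881 to 6465.

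Of 7 tested genes linked to HOXA9 or MEIS1 in leukaemia, 1 fell and 6 did not pass, where 15.8% of all tested genes fell. By limma 0 rose, with 0 at an unadjusted p under 0.05, and neither edgeR nor DESeq2 called any higher (0 each). Igf1r, a growth factor receptor, fell 1.35-fold (limma adjusted p = 0.0406) and missed the threshold, for a count of 0, on leaving out any library but BrM replicate 1 (adjusted p 0.0759 to 0.135). Without BrM replicate 1 the count that passed was 3, while that over all genes went from 3881 to 6465.

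**Figure D5:**
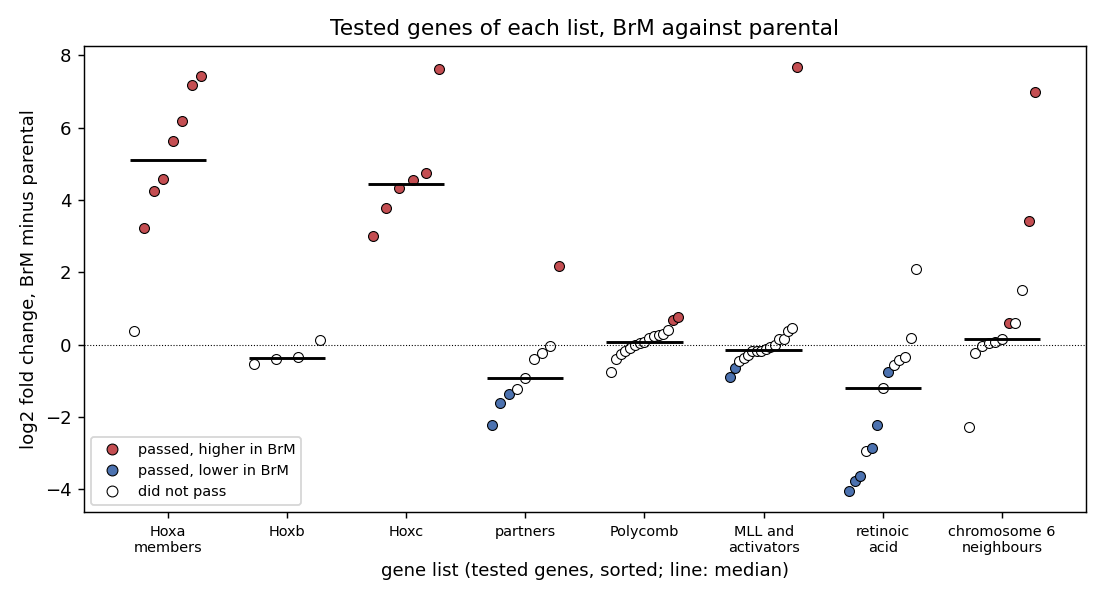
Log2 fold change, BrM minus parental (vertical axis), of each tested gene in 8 lists (horizontal axis); red and blue points passed as higher or lower, white points did not pass, and lines are list medians. The Hoxa and Hoxc medians stand at 5.11 and 4.45, and those of the partner and retinoic acid lists at -0.92 and -1.19.

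Over the 6 libraries, 5 other genes of at least 100 mean counts came nearest to the profile of the summed members, out of 11363 compared, by the root mean square difference of centred log2 values. They were Acap1 (0.38), Glrp1 (0.38), Crispld2 (0.40), Sox10 (0.47) and Afap1l1 (0.47). Acap1 stood at 27.5, 31.3 and 5.67 in the parental libraries and at 615, 302 and 308 in BrM, with parental replicate 3 lowest as for the Hoxa genes. Sox10, a neural crest transcription factor also found in mammary epithelium, stood at 93.6, 57.7 and 18.9 and at 752, 721 and 723. None of the 5 lies on chromosome 6, and the likeness is chiefly the gap between the 2 groups and the low value of parental replicate 3.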

How the data were processed

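Polyadenylated RNA of MMTV-ErbB2 parental and BrM cells was sequenced in 3 libraries each. The deposited signal values are read counts normalised by the authors; per the submitters' processing notes HTSeq and STAR were used with GRCm38 among the builds, versions not stated, and the scaling tool and strand setting are not given in the sources used here. In each library 100% of values above 0 were whole multiples of 1 read to within 0.01, so reads were recovered by division.

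Groups were compared with limma 3.58.1 (R 4.3.3) with an intensity trend on log2(value + 1), over the 13821 genes with a mean of at least 10, in 2-sided tests whose Benjamini-Hochberg adjusted p had to be under 0.05. Folds are on that scale and understate low genes. Mira, Chn2 and Mllt3, with parental means under 10, also reached the minimum mean only through BrM. edgeR 4.0.16 and DESeq2 1.42.0 on recovered reads were alternatives. Ratios of reads carry exact conditional binomial intervals at 95%; a group at 0 was set to 3 reads in all. Intervals and floors cover counting error only. The methods were tested on simulated data with the same spread for all genes and no shifts between libraries. That run therefore does not show how they perform on libraries as unlike as these.

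The members and all gene lists were chosen with earlier results of these data known. Named genes are the members, Hoxa13, the cluster's noncoding genes, up to 4 passing genes of smallest p per list (the 2 of highest mean where none passed; per cluster for other Hox genes), and the 5 nearest profiles; some genes of these lists are not reported here. The column numbered 3 of each group matched no numbered title and was placed by its group. Exon lengths and positions are from GENCODE M21, promoters from RefSeq; figures used matplotlib 3.10.9.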

Additional observations from a re-analysis of the deposited data

How the results depend on the processing

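Of 125 values of single members under 16 alternatives, 107 moved by less than the spread between libraries, 16 moved by more, and 2 turned sign, both for Hoxa4: -0.24 without parental replicate 3, the lowest of a range up to 0.72 on leaving out 1 library, and -0.32 with a replicate block over the numbered libraries. The members' median log2 difference, 5.11, was 4.05 with a pseudocount of 5 and 6.18 with a minimum mean of 50, where fewer members are tested; it went from 4.79 to 5.54 on leaving out 1 library. The number of members whose groups did not overlap was 7 on leaving out any 1 library.

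Counts over all genes and lists depended more on the libraries. Leaving out 1 library gave 2190 to 6465 genes called against 3881, with the most without BrM replicate 1, 2 to 6 Hox partners (4), 0 to 4 Polycomb genes (2), 2 to 7 MLL and activator genes (3), 2 to 5 chromosome 6 neighbours (3), 5 to 9 retinoic acid genes (6), 7 to 9 other Hox genes (7) and 0 to 3 HOXA9 and MEIS1 linked genes (1). Without a filter the counts were 11 other Hox genes, 1 Polycomb gene, 5 neighbours and 0 linked genes, and with a minimum mean of 50 there were 4 other Hox genes. The linked genes numbered 0 with library total scaling, with edgeR and with BrM replicates 2 and 3 averaged, and 2 with DESeq2, which called 4 Polycomb genes. The averaging was added after seeing the data and gave 2279 genes called and 0 Polycomb genes. The cause was not tested.

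The labels number 2 libraries of each group. Their deviations from the group means correlated at 0.15 over 13821 genes, and with 2 numbers the libraries share only a number. The replicate block over those 4 libraries gave 2007 genes called, 2 Hox partners, 0 Polycomb genes and 1 MLL or activator gene. Depth limits the parental values, since 5 members rest on 0 to 3 reads there.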
